A study of Drosophila melanogaster with 9 samples.

Results

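The chromatin accessibility of 9 Drosophila genes of the chaperone system was followed at 3 culture temperatures. The genes were Hsf, which encodes the heat shock transcription factor, the chaperone genes Hsp83, Hsc70-4, Hsp68, Hsc70-3, Hsc70-5 and Hsp60A, and the cochaperone genes DnaJ-1 and stv. Their peaks were all consensus ATAC-Seq peaks that overlapped, by at least 1 bp, the annotated body of one of these genes or the 2000 bp upstream of it, which gave 18 of the 17175 peaks counted. DnaJ-1 had 4 of them, Hsf and Hsp83 had 3 each, Hsp68 and Hsc70-3 had 2 each, and Hsc70-4, Hsc70-5, Hsp60A and stv had 1 each. ATAC-Seq counts the fragments that a transposase cuts from open chromatin. The 9 libraries were made from S2R+ cells, a single cultured line derived from Drosophila embryos, with 3 libraries at each of 14, 25 and 29 °C. All cultures grew at 25 °C for 36 h and were then kept at their final temperature for 24 h, without any other treatment. Nuclei from every culture were tagmented at 25 °C, so that a difference lost on return to this temperature would not be seen. The study's methods give a larger number of seeded cells for the 14 °C cultures than for the others, whereas the sample descriptions give 1 number for all, so temperature and seeding cannot be told apart in differences of 14 °C from the others.

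Hsf is held as an inactive monomer in unstressed cells. On heating it forms trimers that bind arrays of short inverted repeats, the heat shock elements, upstream of chaperone genes. In Drosophila the promoters of several heat shock genes are already open before heating, with GAGA factor bound at GA repeats and a paused RNA polymerase downstream. Hsp83 (the cytosolic Hsp90), Hsc70-4 (the main cytosolic Hsp70 cognate), Hsc70-3 (BiP of the endoplasmic reticulum), Hsc70-5 and Hsp60A (the Hsp70 and the chaperonin of mitochondria) are expressed without stress. Hsp68, an Hsp70 relative, and DnaJ-1, a J-domain partner of Hsp70, are known as heat-inducible genes, and Hsp83 is further induced by heat, so the set is not purely constitutive. The product of stv, Starvin, is a BAG-domain cochaperone of Hsp70.

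The libraries held between 3290670 and 10805366 counts in peaks. A count in a peak at the genome-wide median had a counting error of 6.19%. The biological coefficient of variation between replicates, from the dispersion common to all peaks, was 22.7%. The 18 peaks held between 53 and 1415 counts per library, with a median of 350. The spread of log2 counts over all peaks differed between libraries: its SD was 0.73 and 0.77 in replicates 1 and 3 at 14 °C but 1.06 in replicate 2, between 0.89 and 1.14 at 25 °C, and 1.01 and 1.03 in replicates 1 and 3 at 29 °C but 1.32 in replicate 2. Replicate 2 thus stood apart from its group at both 14 and 29 °C. Peaks whose call changes without one of these libraries are named further below. Of 8 genes known from hemocytes, the blood cells that S2R+ cells resemble, 6 had a peak within 500 bp of a TSS (transcription start site), while Hml and NimC1 had none. The genes twi, elav and repo of other lineages had 1 such peak each and vas had none, and a peak is not a measure of expression.

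The letters of the heat shock element, the sequence that Hsf trimers bind, were found inside several of these peaks, and the stretches below show where. A match describes the sequence and is not evidence of binding. The 3-unit heat shock element joins TTCNNGAA and GAANNTTC so that they share the middle GAA. Each pair is its own reverse complement but the 3-unit element is not, so both strands were searched. Without a mismatch it was found in 3 of the 17 peaks of 500 bp, at Hsp68, Hsc70-4 and Hsp60A, compared with 0.55% of all 15999 peaks of this width. The Hsp68 promoter held 3 overlapping copies between 182 and 160 bases before the TSS, at Hsc70-4 a single copy lay in an intron 1087 to 1099 bases downstream of the first TSS, and at Hsp60A it lay in an intron 291 to 303 bases downstream. A second copy at Hsc70-4 lay 265 to 277 bases downstream of the first TSS, outside any peak. With up to 1 of the 9 fixed letters changed, a search added after the data had been seen, the Hsp83, Hsc70-5 and DnaJ-1 peaks were added to these, which made 6 of 17 peaks against 10.7% of all. At Hsp83, 4 overlapping copies of this relaxed form filled 28 bases, from 78 to 51 bases before the downstream of its 2 annotated TSSs, which are 247 bp apart, and so in the 5′ UTR of the longer transcript. The GAGA repeat GAGAGAG was found in 2 of the 17 peaks, both of Hsc70-3, against 13.1% of all. All sequences are from the RefSeq copy of the dm6 assembly (chr3L for Hsp83 and DnaJ-1, chr3R for Hsp68 and Hsc70-4, chrX for Hsp60A and Hsc70-3), written 5′ to 3′ along the strand of the gene. Capitals mark the 3-unit element (in the Hsp83 and DnaJ-1 stretches with up to 1 letter changed) and, in the Hsc70-3 stretch, the GAGA repeat, which reads CTCTCTC on this strand.
Hsp83 promoter, chr3L:3193138-3193165, plus strand: GAAGCCTCTAGAAGTTTCTAGAGACTTC
Hsp68 promoter, chr3R:24057311-24057560, minus strand: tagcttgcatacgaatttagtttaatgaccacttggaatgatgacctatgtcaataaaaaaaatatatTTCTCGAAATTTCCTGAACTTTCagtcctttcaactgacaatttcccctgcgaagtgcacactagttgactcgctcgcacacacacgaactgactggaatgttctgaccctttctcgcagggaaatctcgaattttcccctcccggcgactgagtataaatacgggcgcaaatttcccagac
Hsc70-4 intron, chr3R:15243743-15243815, plus strand: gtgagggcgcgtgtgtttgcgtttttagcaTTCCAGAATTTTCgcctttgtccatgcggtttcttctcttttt
Hsp60A intron, chrX:11108742-11108814, plus strand: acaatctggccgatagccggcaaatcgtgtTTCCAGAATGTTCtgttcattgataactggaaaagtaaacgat
DnaJ-1 coding start, chr3L:5751539-5751593, minus strand: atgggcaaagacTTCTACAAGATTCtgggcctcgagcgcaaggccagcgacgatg
Hsc70-3 intron, chrX:11805462-11805722, minus strand: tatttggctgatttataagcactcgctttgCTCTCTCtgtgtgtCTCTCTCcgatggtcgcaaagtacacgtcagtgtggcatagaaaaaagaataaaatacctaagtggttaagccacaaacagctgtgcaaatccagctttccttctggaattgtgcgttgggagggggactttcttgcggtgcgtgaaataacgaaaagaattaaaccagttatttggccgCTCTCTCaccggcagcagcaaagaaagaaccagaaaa

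Among gene-start windows, taken from 250 bp before to 50 bp after the first TSS of each gene, the exact 3-unit element was in 60 of 13968 (0.43%), and Hsp68 was the one of the 9 genes that had it. A search of windows at every annotated TSS was added after the data had been seen. It found the element in 3 of 23 windows of these genes, at Hsp68 and Hsc70-4, against 0.418% of 19630. Among the windows at the first TSS, the TATA box TATAAA was in 6 of the 9 (Hsp83, Hsc70-4, Hsp68, Hsc70-5, Hsp60A and DnaJ-1) and in 45.8% of all. The sequence TATCGATA, known as the DRE, was in the windows of Hsp83 and DnaJ-1 and in 9.36% of all, and in none of the 17 peaks. Of the shorter pairs, TTCNNGAA was in 5 of the 17 peaks against 10.9% of all, and GAANNTTC was in 4 of 17 against 11.7%.

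The positions of the peaks differed between the genes. In 6 of the 18 peaks an annotated TSS of the gene itself lay inside, as at Hsf (chr2R:18134175-18134675), Hsp83 (chr3L:3192845-3193345), Hsp68 (chr3R:24057144-24057644), Hsc70-5 (chr2R:14255807-14256307), Hsp60A (chrX:11108315-11108815) and, at an internal TSS, stv (chr3L:13480444-13480944). Coordinates are those of the deposited table, on dm6. The most prominent peaks of Hsc70-4 (chr3R:15243389-15243889) and Hsc70-3 (chrX:11805447-11805947) were intronic, with midpoints 441 bp downstream and 333 bp upstream of the nearest annotated TSS of the gene, and the DnaJ-1 peak nearest to its TSS (chr3L:5751501-5752001) covered 5′ UTR and coding sequence 438 bp into the gene. Because 7 of the 18 peaks lay within 500 bp of a TSS of another gene (Pcl, CG14965, CG14966, SMC1, CG8531 or Usp47, the last with 2 peaks), reads there cannot be assigned to the chaperone gene alone.

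**Figure D1:**
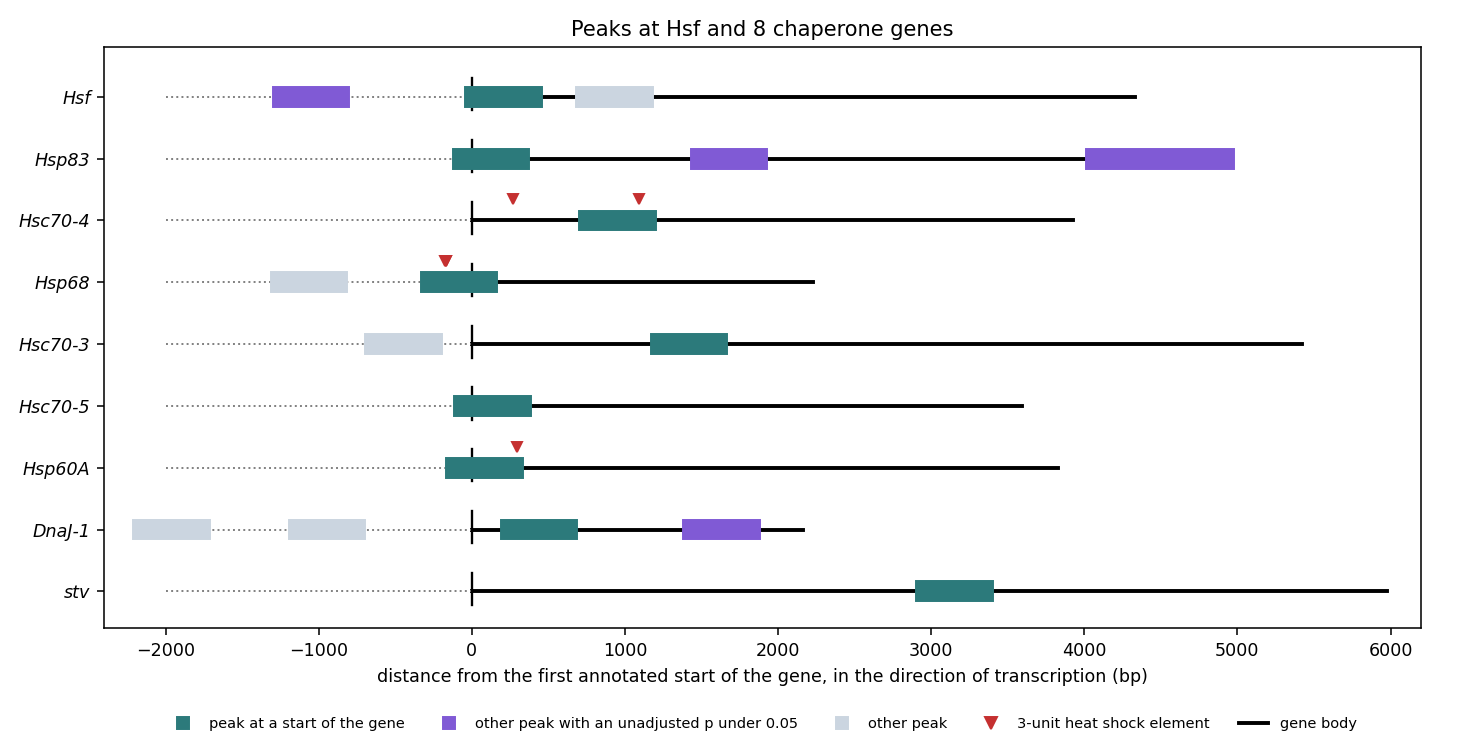
Peaks at the 9 genes. The x axis is the distance from the first annotated TSS in bp, black lines are gene bodies, dotted lines the 2000 bp upstream, boxes the 18 peaks and triangles exact matches to the 3-unit heat shock element. Hsf, Hsp83, Hsp68, Hsc70-5 and Hsp60A have a peak over their first TSS, whereas the boxes of Hsc70-4, Hsc70-3, DnaJ-1 and stv at a start of the gene lie further downstream.

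At 25 °C the most accessible of these peaks, scaled to 500 bp, were those at Hsc70-5 (102 ± 20.5 CPM, SD, n = 3, above 89.6% of all peaks) and the nearer of both upstream DnaJ-1 peaks (101 ± 9.12 CPM, above 89.3%). CPM are counts scaled to a common library size with TMM factors. The least accessible was the stv peak at 16.8 ± 1.14 CPM, above only 2.70% of all peaks. With a median of 47.5 CPM the 18 peaks lay above 64.8% of all peaks at this temperature. Hsc70-4 was the next highest at 97.0 ± 15.7 CPM, a difference from Hsc70-5 that is smaller than either SD. At 29 °C the medians of the 18 peaks and of all peaks were 61.0 and 34.8 CPM per 500 bp, and at 14 °C they were 53.0 and 39.4.

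Between 14 and 29 °C most of the 18 peaks had lower estimates at 14 °C, but none of them passed the test, Hsf and Hsp83 included. Fewer cells with an open site and less access per cell cannot be told apart in such bulk libraries. At an adjusted p under 0.05 (edgeR quasi-likelihood test, Benjamini-Hochberg over all peaks) 0 of 18 were called, where 1.22% of all peaks were. The log2 fold change (14 minus 29 °C) was below 0 in 15 of the 18, compared with 49.2% of all peaks. Among 6723 peaks near a TSS within the range of mean log2 CPM of the 18, 61.8% were below 0. The median log2 fold change was -0.31 in the 18, 0.02 over all peaks and -0.12 over these 6723. Over the 7945 peaks within 500 bp of any TSS it was -0.17. Unadjusted p values under 0.05 were found for 5 of the 18 (33.3% of all peaks), all with the lower value at 14 °C (13.2% of all peaks). These were the upstream and TSS peaks of Hsf, the TSS peak of Hsp83, the intronic peak of Hsc70-3 and the peak of Hsc70-5. All libraries at 14 °C lay below all at 29 °C in 3 of the 18 peaks, a share of 16.7% that is close to the 15.1% over all peaks. With DESeq2, 1 of the 18 was called (12.6% of all), the TSS peak of Hsp83.

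**Figure D2:**
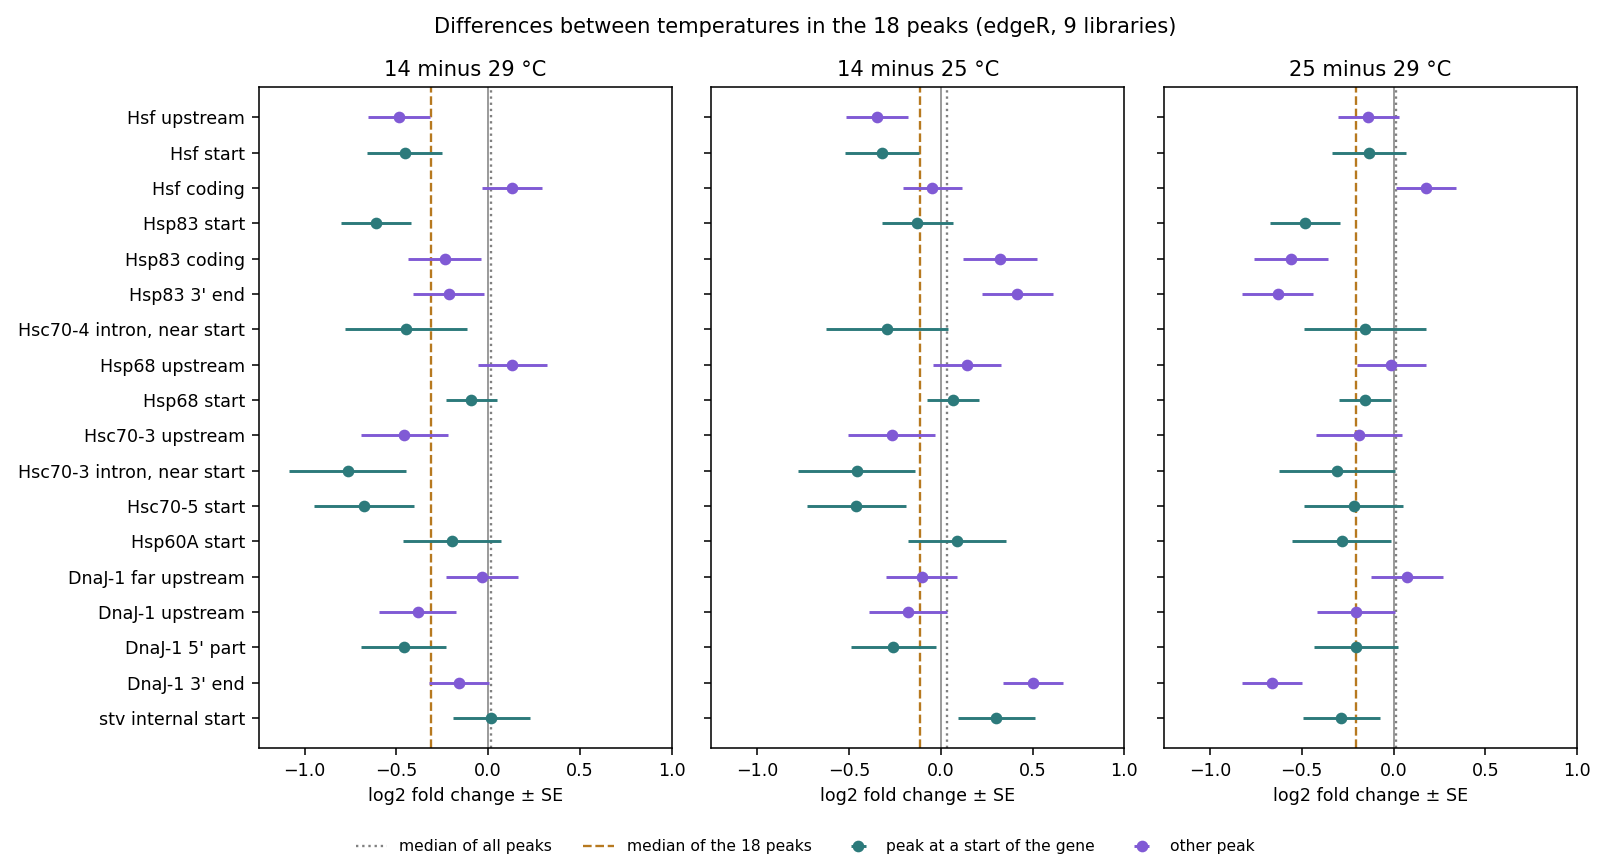
Log2 fold changes of the 18 peaks between temperatures. Points are edgeR estimates from all 9 libraries, bars are their SE, and the lines mark 0 and the medians of the 18 peaks (-0.31, -0.12 and -0.20 from left to right) and of all 17175 peaks. The 9 peaks at a start of the gene are all below 0 in the comparison of 25 with 29 °C, although none of them passed the adjusted threshold.

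The other comparisons gave no call either. Between 14 and 25 °C 0 of the 18 peaks were called (0.00582% of all, which is a single peak), and 1 had an unadjusted p under 0.05 (5.33% of all). Lower values at 14 °C were found in 11 of the 18, against 46.5% of all peaks, with median log2 fold changes of -0.12 and 0.04. Between 25 and 29 °C 0 of the 18 were called (0% of all), and 4 had an unadjusted p under 0.05 (4.58% of all), each lower at 25 °C. Lower values at 25 °C were found in 16 of the 18, against 47.8% of all peaks, with medians of -0.20 and 0.02. Of 6723 peaks near a TSS within the range of mean log2 CPM of the 18, 59.1% and 56.8% had lower values in these comparisons, respectively. The test for any difference among the 3 temperatures called 0 of 18 (0.0815% of all) and gave an unadjusted p under 0.05 for 4 (15.7% of all). The highest mean was at 29 °C for 14 of the 18 peaks, compared with 40.7% of all peaks. In 5 of the 18 peaks all libraries at 25 °C lay below all at 29 °C (27.8%, against 7.91% of all peaks), namely the 3 peaks of Hsp83, the TSS peak of Hsp68 and the 3′ peak of DnaJ-1. DESeq2 called 0 of the 18 between 14 and 25 °C (0.425% of all) and between 25 and 29 °C (0.116% of all). The 3 comparisons share libraries and are not independent of each other.

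**Figure D3:**
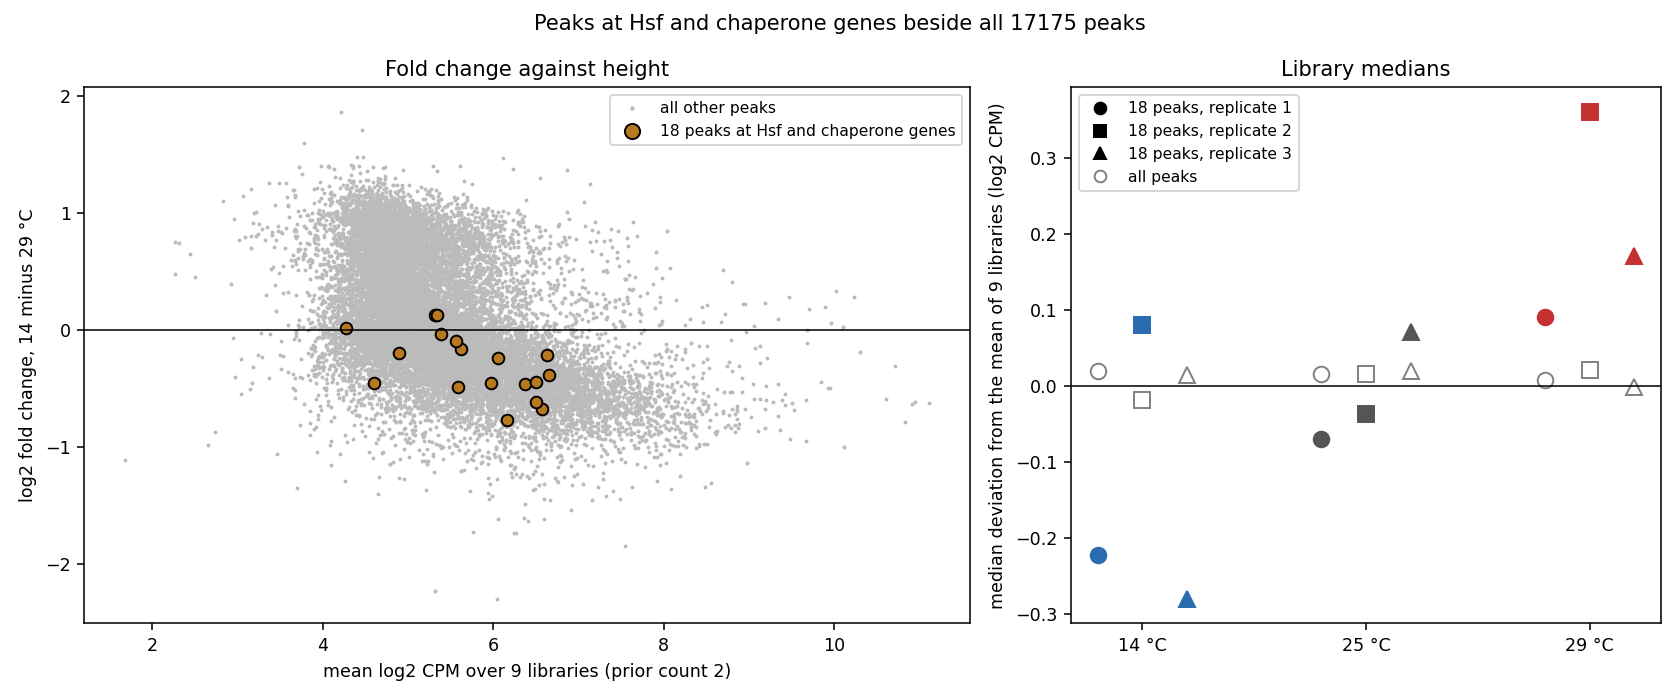
The 18 peaks beside all peaks. Left, the log2 fold change between 14 and 29 °C of each peak against its mean log2 CPM, with all other peaks in grey. Right, the median deviation of the 18 peaks (filled) and of all peaks (open) from their mean over the 9 libraries in log2 CPM, by library. The filled symbols of replicates 1 and 3 at 14 °C are the lowest, at -0.22 and -0.28, and that of replicate 2 at 14 °C is at 0.08.

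Library by library, the median deviation of the 18 peaks from their own mean was -0.22, 0.08 and -0.28 (log2 CPM) in replicates 1, 2 and 3 at 14 °C, -0.07, -0.04 and 0.07 at 25 °C, and 0.09, 0.36 and 0.17 at 29 °C. At 14 °C replicate 2 was thus close to the lowest library at 29 °C, whereas replicates 1 and 3 were below every other library. Over all peaks this median stayed between -0.02 and 0.02 in every library. The spread of log2 counts over all peaks also differed between these libraries, with its lowest SDs in replicates 1 and 3 at 14 °C and its highest, 1.32, in replicate 2 at 29 °C. Taller peaks had lower values at 14 °C across the whole table, as the plot of fold change against height shows. When all peaks were divided into 4 classes of equal size by mean log2 CPM, the median log2 fold change between 14 and 29 °C was 0.47, 0.31, -0.11 and -0.43 from the lowest to the highest class, which held 2, 1, 6 and 9 of the 18 peaks. With offsets for each library that remove this dependence on height the median of the 18 peaks was -0.11, still with 0 of 18 called (4.9% of all).

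At Hsf the peak over the TSS had 42.6, 66.2 and 49.0 CPM at 14 °C, 60.4, 62.6 and 75.0 CPM at 25 °C and 61.7, 84.0 and 71.4 CPM at 29 °C. Only replicate 2 at 14 °C reached into the range of the warmer libraries, and the other 14 °C libraries were below all of them. The log2 fold change between 14 and 29 °C was -0.45 ± 0.20 (SE), with an adjusted p of 0.148 (edgeR, Benjamini-Hochberg). The second peak, 1051 bp upstream of the Hsf TSS (chr2R:18135435-18135935), is also within 500 bp of the TSS of Pcl, the gene of a Polycomb-like protein. It had 36.1, 44.1 and 37.9 CPM at 14 °C, 49.4, 43.2 and 58.1 CPM at 25 °C and 50.8, 61.9 and 52.9 CPM at 29 °C. All libraries at 14 °C lay below all at 29 °C, and the 25 °C libraries overlapped both. Its log2 fold change between 14 and 29 °C was -0.49 ± 0.17 (adjusted p = 0.117, edgeR). Without replicate 2 at 14 °C both peaks passed the threshold, with log2 fold changes of -0.66 at the TSS (adjusted p = 0.0196, edgeR) and -0.58 upstream (adjusted p = 0.0245). In that fit, cited again for the genes below, 49.7% of all peaks were called and 23.4% were called and lower at 14 °C. Over all alternatives the adjusted p ranged from 0.00326 to 0.44 and from 0.00138 to 0.379, respectively. The third Hsf peak, over coding sequence and an intron 932 bp downstream of the TSS, lay on the other side of 0, at 0.13 ± 0.16 between 14 and 29 °C (adjusted p = 0.555, edgeR).

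Among the 5 peaks at a TSS of other genes whose log2 CPM followed the Hsf TSS peak most closely over the 9 libraries were those at eIF4A, Arf6, CG8281 and pbl, and CG32812, each with a Pearson correlation of 0.99. Such likeness was common: of 7930 peaks compared, 1589 (20.0%) had a correlation with the Hsf peak over 0.9. All points come from the same 9 libraries and share their depth and spread of counts. The Hsf TSS peak had a correlation of 0.95 with the SD of log2 counts of the libraries.

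The TSS peak of Hsp83 had the smallest adjusted p of the 18 peaks between 14 and 29 °C. This peak covers both annotated TSSs and the 28 bases shown above, and it lies within 500 bp of the TSS of CG14965. It had 73.3, 86.5 and 69.6 CPM at 14 °C, 72.4, 87.1 and 91.4 CPM at 25 °C and 102, 134 and 114 CPM at 29 °C. The 29 °C libraries were all above the other 6, which overlapped each other. Between 14 and 29 °C the log2 fold change was -0.61 ± 0.19 (adjusted p = 0.112, edgeR), a level 1.53-fold higher at 29 °C, and between 25 and 29 °C it was -0.48 ± 0.19 (adjusted p = 0.822, edgeR). This peak passed the threshold with DESeq2 (log2 fold change -0.60, adjusted p = 0.0175) and without replicate 2 at 14 °C (-0.71, adjusted p = 0.0154 with edgeR). With offsets against peak height the difference was -0.20 (adjusted p = 0.266, edgeR), and over all alternatives the adjusted p ranged from 0.0015 to 0.37.

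The peak over Hsp83 coding sequence and an intron (chr3L:3194399-3194899) had 68.3, 70.1 and 65.5 CPM at 14 °C, 52.1, 55.0 and 56.0 CPM at 25 °C and 106, 72.9 and 61.0 CPM at 29 °C. Its 25 °C libraries were below all others, and at 29 °C replicate 1 was far above the other 2. The wide peak of 967 bp over the Hsp83 3′ end (chr3L:3196981-3197948), which extends past the gene to a TSS of CG14966, had 88.9, 123 and 99.5 CPM at 14 °C, 70.8, 84.7 and 78.2 CPM at 25 °C and 111, 130.0 and 121 CPM at 29 °C. Again all libraries at 25 °C were below all others, and the 14 and 29 °C libraries overlapped. Between 25 and 29 °C the log2 fold changes were -0.56 ± 0.20 in the coding peak and -0.63 ± 0.19 at the 3′ end, and between 14 and 25 °C they were 0.32 ± 0.20 and 0.42 ± 0.19. None of these passed (adjusted p = 0.822 for both between 25 and 29 °C and 0.654 for both between 14 and 25 °C, edgeR). With offsets against peak height the 3′ peak was called between 14 and 25 °C (log2 fold change 0.70, adjusted p = 0.0296, edgeR, from 0.0296 to 1 over all alternatives), as 1 of 18 against 0.477% of all peaks, and in the test for any difference it was the 1 of 18 called against 2.25% of all.

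Among the Hsp70 family, Hsc70-4 had 1 peak, in the intron that holds the heat shock element shown above. It had 45.05, 128 and 63.3 CPM at 14 °C, 86.9, 89.1 and 115 CPM at 25 °C and 91.4, 122 and 111 CPM at 29 °C. At 14 °C replicate 2 had the highest value of all 9 libraries and replicates 1 and 3 the lowest. The log2 fold change between 14 and 29 °C was -0.45 ± 0.33 (adjusted p = 0.324, edgeR), and without replicate 2 at 14 °C it was -0.99 (adjusted p = 0.0111, from 0.00349 to 0.732 over all alternatives).

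Hsp68, with 3 overlapping heat shock elements in its promoter peak, had nearly equal values in all libraries. The TSS peak had 43.3, 49.7 and 47.4 CPM at 14 °C, 48.3, 45.2 and 41.0 CPM at 25 °C and 48.6, 49.3 and 52.2 CPM at 29 °C. The groups differed by less than their spread between 14 and 29 °C, with a log2 fold change of -0.09 ± 0.14 (adjusted p = 0.635, edgeR), which corresponds to a level 1.07-fold higher at 29 °C, and the sign turned to 0.05 when libraries were scaled by their total count. All libraries at 29 °C were above all at 25 °C. The other Hsp68 peak, 1062 bp upstream at a TSS of the cohesin gene SMC1, had a log2 fold change of 0.13 ± 0.19 between 14 and 29 °C.

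The peaks of Hsc70-3 and Hsc70-5, the Hsp70 members of the endoplasmic reticulum and the mitochondria, had the largest estimates between 14 and 29 °C. The intronic Hsc70-3 peak, with the GAGA repeats shown above, had 31.4, 87.8 and 46.4 CPM at 14 °C, 71.2, 70.1 and 88.4 CPM at 25 °C and 85.5, 114 and 84.3 CPM at 29 °C. Replicates 1 and 3 at 14 °C were lower than every other library, and replicate 2 was within the range of 25 and 29 °C. Its log2 fold change between 14 and 29 °C was -0.77 ± 0.32 (adjusted p = 0.136, edgeR), and without replicate 2 at 14 °C it was -1.27 (adjusted p = 0.00885, from 5.34e-07 to 0.397 over all alternatives). The upstream peak of Hsc70-3 was lower, between 19.1 and 21.5 CPM at 14 °C and between 26.6 and 30.4 CPM at 29 °C without overlap, at -0.46 ± 0.24 on the log2 scale (adjusted p = 0.184, edgeR).

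The peak over the Hsc70-5 TSS lies within 500 bp of the TSS of the divergent gene CG8531. It had 59.2, 104 and 59.2 CPM at 14 °C, 84.1, 98.4 and 124 CPM at 25 °C and 101, 145 and 111 CPM at 29 °C. Replicate 2 at 14 °C again lay among the warmer libraries, and the other libraries at 14 °C were below all of them. The log2 fold change between 14 and 29 °C was -0.68 ± 0.27 (adjusted p = 0.131, edgeR), and -1.01 without replicate 2 at 14 °C (adjusted p = 0.011, from 0.000224 to 0.399 over all alternatives). Hsp60A, the mitochondrial chaperonin, had a lower peak of 25.0, 39.1 and 23.3 CPM at 14 °C, 24.4, 24.1 and 34.1 CPM at 25 °C and 28.8, 42.1 and 29.3 CPM at 29 °C. The 3 groups overlapped, and replicate 2 was the highest library at both 14 and 29 °C. Between these temperatures its log2 fold change was -0.20 ± 0.27 (adjusted p = 0.590, edgeR), and it was 0.01 without replicate 2 at 29 °C.

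At DnaJ-1 the 5′ and 3′ parts of the gene had different patterns. The 5′ peak, over the coding start, had 51.7, 92.4 and 68.3 CPM at 14 °C, 79.3, 84.2 and 91.7 CPM at 25 °C and 93.7, 116 and 83.4 CPM at 29 °C. Its 14 and 29 °C libraries overlapped through replicate 2 at 14 °C. The log2 fold change between these temperatures was -0.46 ± 0.23 (adjusted p = 0.172, edgeR), and -0.70 without that library (adjusted p = 0.0193, from 0.00779 to 0.541 over all alternatives). The 3′ peak (chr3L:5750308-5750808), over coding sequence and 3′ UTR, had 49.0, 51.3 and 59.8 CPM at 14 °C, 43.7, 34.1 and 35.4 CPM at 25 °C and 66.5, 56.3 and 56.0 CPM at 29 °C. Here the 25 °C libraries were below all others, and the 14 and 29 °C libraries overlapped. The log2 fold change was -0.66 ± 0.16 between 25 and 29 °C (adjusted p = 0.822, edgeR) and 0.50 ± 0.16 between 14 and 25 °C (adjusted p = 0.654). Its unadjusted p in the test for any difference, 0.00540, was the smallest of the 18 (adjusted p = 0.203, edgeR), and DESeq2 called it in this test (adjusted p = 0.0182) as 1 of 3 of the 18 peaks, the others being the TSS and 3′ peaks of Hsp83, where 5.07% of all peaks were called. Both DnaJ-1 peaks upstream, at TSSs of Usp47, a deubiquitinase gene, had log2 fold changes of -0.03 ± 0.20 and -0.38 ± 0.21 between 14 and 29 °C. Without replicate 2 at 14 °C the nearer of them was at -0.58 (adjusted p = 0.0232, edgeR).

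The stv peak, at an internal TSS, had the lowest mean of the set at 25 and 29 °C, while at 14 °C the upstream Hsc70-3 peak was lower (20.4 against 20.8 CPM). The stv peak had 25.2, 17.2 and 20.1 CPM at 14 °C, 18.1, 16.5 and 15.8 CPM at 25 °C and 23.2, 21.1 and 16.7 CPM at 29 °C. The 3 groups overlapped, with the lowest mean at 25 °C, and the log2 fold change between 14 and 29 °C was 0.02 ± 0.21 (adjusted p = 0.955, edgeR). It was -0.35 with offsets against peak height, again without a call.

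**Figure D4:**
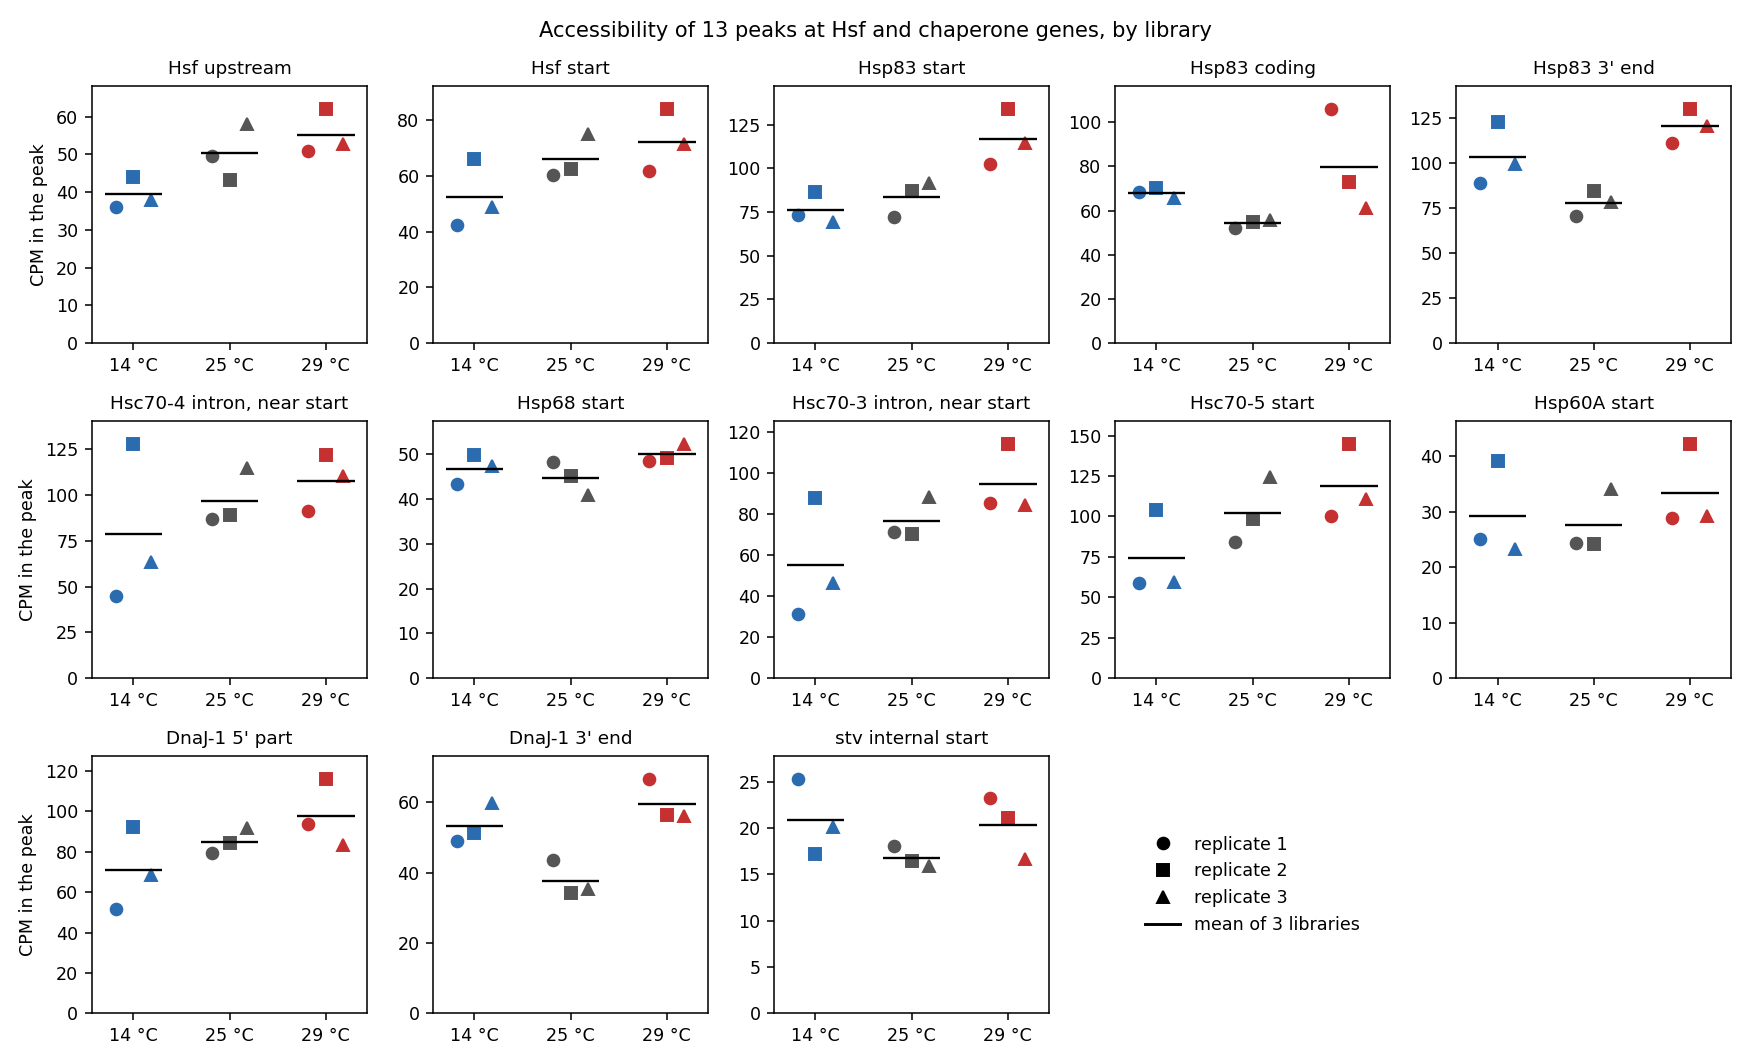
CPM of the 13 peaks described singly, by library. Columns within a panel are the temperatures, symbols the replicates, and black lines the mean of 3 libraries, and every y axis starts at 0. In the panels of Hsc70-4, Hsc70-3 and Hsc70-5 replicate 2 at 14 °C (blue square) is apart from the other 14 °C libraries, whereas Hsp83 coding, Hsp83 3′ end and DnaJ-1 3′ end have all 25 °C libraries below the others.

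A set of 3 peaks thus had the lowest values at 25 °C without overlap with either other temperature, the coding and 3′ peaks of Hsp83 and the 3′ peak of DnaJ-1. All libraries at 14 °C were above all at 25 °C in these 3 of the 18 peaks (16.7%, against 4.59% of all peaks). The share of all peaks with 25 °C below both other temperatures without overlap was not counted. Whether 3 of 18 exceeds that share is therefore not known. The lowest mean was at 25 °C in 7 of the 18 peaks, against 13.9% of all peaks. None of the 3 peaks without overlap lay at a TSS of its chaperone gene, and the comparisons with 14 and with 29 °C share the 25 °C libraries. Their GC contents were 50.3%, 40.0% and 51.5%, where the median over all peaks was 43.7%. The part of GC content was not tested.

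The count of calls between 14 and 29 °C changed when replicate 2 at 14 °C was left out. Without it 8 of the 18 peaks were called between 14 and 29 °C, all lower at 14 °C, while 49.7% of all peaks were called and 23.4% were called and lower at 14 °C. The 8 were the upstream and TSS peaks of Hsf, the TSS peak of Hsp83, the peaks of Hsc70-4 and Hsc70-5, the intronic peak of Hsc70-3, and the 5′ peak and the nearer upstream peak of DnaJ-1. The test for any difference then called 6 of the 18 (22.6% of all). They were the TSS and 3′ peaks of Hsp83, the intronic Hsc70-3 peak, the DnaJ-1 3′ peak, and those of Hsc70-4 and Hsc70-5. For the 3′ peaks of Hsp83 and DnaJ-1 the adjusted p in this test was 0.0385 and 0.0376 (edgeR). Without replicate 2 at 29 °C 0 of the 18 were called between 14 and 29 °C (0.0524% of all). Equal replicate numbers at 14 and 29 °C deviated together, with correlations across peaks of 0.634, 0.826 and 0.538. Replicates 1 and 3 were not told apart by this, since replicate 1 at 14 °C with replicate 3 at 29 °C gave 0.559 and the reverse gave 0.551. Deviations were taken from each group's own mean, so a library apart in both groups raises the correlation of the other pairs too. Replicate 2 at 14 °C with replicate 3 at 25 °C, an unlike number, gave 0.817. These correlations cannot show which libraries were paired. When replicate number was a block in a fit of the 6 libraries of these temperatures, a fit added after the data had been seen, 9 of 18 were called, all lower at 14 °C, where 58.6% of all peaks were called and 25.1% were called and lower. These were the 8 above and the upstream peak of Hsc70-3, with log2 fold changes from -0.85 to -0.40. This fit has 2 residual degrees of freedom, but its p values rest on a spread pooled over all peaks and taken as known. At Hsc70-5, for example, -0.71 ± 0.18 (SE) had an unadjusted p of 6.32e-05 (edgeR). The lowest adjusted p in each range given above for 14 against 29 °C comes from this fit. With the block on all 9 libraries 0 of 18 were called (2.79% of all). Hsp68, Hsp60A, stv, the 3′ peaks of Hsp83 and DnaJ-1 and the coding peak of Hsp83 were called between 14 and 29 °C in neither of these fits.

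Other genes of the chaperone system were compared in the same tests, from lists chosen with earlier results of these data known. No peak of any list passed the adjusted threshold in any of the 3 comparisons or in the test for any difference (edgeR), whereas for 14 against 29 °C the unadjusted p was under 0.05 in 31 of their 137 peaks (33.3% of all peaks) and DESeq2 called 11 (12.6% of all peaks). With edgeR the unadjusted p was under 0.05 in 3 of the 137 between 14 and 25 °C (5.33% of all), in 2 between 25 and 29 °C (4.58%) and in 14 for any difference (15.7%), and DESeq2 called 0, 0 and 2 (0.425%, 0.116% and 5.07% of all). Between 14 and 29 °C, 11 of 39 peaks at 16 cochaperones of Hsp90 and Hsp70 were under this unadjusted level, 4 with the higher and 7 with the lower value at 14 °C, and the median log2 fold change was -0.20. Of 33 peaks at 14 genes of endoplasmic reticulum chaperones and their regulators 6 were, 4 higher and 2 lower, with a median of -0.16. Of 30 peaks at 12 regulators of heat shock loci, such as the GAGA factor gene Trl and the genes of the pausing factor NELF, 11 were, 6 higher and 5 lower, with a median of -0.16. The 20 peaks of the cytosolic chaperonin TRiC and prefoldin had a median of -0.04 and 1 such p, and the 9 peaks of further mitochondrial chaperones had a median of 0.03 and none. The 5 peaks of the small heat shock genes at 67B had a median of -0.28 and 2 such p values, both lower at 14 °C, and both Hsp70 peaks, at Hsp70Ba and Hsp70Bb, had lower values at 14 °C, with a median of -0.39. These Hsp70 copies are nearly the same in sequence, so their values are uncertain, since only uniquely placed reads were kept.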

How the data were processed

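Of S2R+ cells, 9 ATAC-Seq libraries were analysed (3 each at 14, 25 and 29 °C). Reads had been trimmed by the authors (Trimmomatic 0.38), aligned to dm6 (Bowtie2) and freed of mitochondrial, multiply mapped and duplicate reads (SAMtools, Picard). The authors then called peaks per library with MACS2 and counted reads with DiffBind in consensus peaks found in at least 2 libraries, most of them 250 bp on either side of the summit. The deposited table holds unscaled counts of reads in each peak, which were the values tested. The deposited normalized signal, the count less 1 over a size factor, served to recover the authors' size factors. It differs from that form in 4 peaks, none of them at these genes. No column was left unassigned.

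Differences between temperatures were tested with edgeR 4.0.16 under R 4.3.3 (TMM, robust quasi-likelihood fit, temperature as the factor, 9 libraries, 6 residual degrees of freedom, Benjamini-Hochberg over all 17175 peaks, threshold 0.05). The SE is the size of the log2 fold change over the square root of F. Log2 CPM used a prior count of 2. Gene positions are from Ensembl release 115 on dm6, and no peak ends beyond its chromosome. The members and gene lists were chosen with earlier results of these data known. Peaks described singly are, for each gene, the highest within 500 bp of one of its TSSs, and any other with an unadjusted p under 0.05 in a test. The fit was tested on simulated data. p values rest on 3 libraries per temperature, from replicate cultures per the study's methods.

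Alternatives were RLE, total-count and the authors' scaling, offsets against peak height (loess, span 0.3), a replicate block (alone or together with the offsets), DESeq2 1.42.0, only the libraries compared, a filter at a mean count of 182 (12884 peaks), adjusted p under 0.01 and under 0.1, narrower rules for members, and each library left out. The block on only the 6 libraries was added after the data had been seen. The edgeR fit described above treated no libraries as paired, and only the block alternatives used the replicate number. The rule for pairing was that deviations of all 3 pairs of equal replicate number correlated over 0.1. It was met for 14 and 29 °C and not for the others. This rule cannot show which libraries were paired. Of the 5 peaks most like the Hsf TSS peak, 1 is not reported here.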

Additional observations from a re-analysis of the deposited data

How the results depend on the processing

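In the comparison of 14 with 29 °C the count of 0 called peaks among the 18 became 1 with DESeq2 and 9 with the replicate block on the 6 libraries, and leaving out 1 library gave 0 to 8, where 8 came without replicate 2 at 14 °C. For 14 against 25 °C it became 1 with offsets against peak height, alone or with the replicate block. For any difference it became 1 with these offsets, alone or with the block, and 3 with DESeq2, and leaving out 1 library gave 0 to 6, where 6 came without replicate 2 at 14 °C. Every other alternative run gave 0 in these tests, the replicate block on all 9 libraries included. The median log2 fold change of the 18 peaks between 14 and 29 °C was -0.11 with offsets against peak height, -0.13 with these and the block, and between -0.49 and -0.25 with 1 library left out. With 1 library left out that median lay between -0.21 and -0.049 for 14 against 25 °C, and between -0.28 and -0.12 for 25 against 29 °C, the last without replicate 2 at 29 °C. With the authors' scaling it was -0.19 and -0.13, respectively. Scaling by the total count in peaks moved the median of all peaks from 0.02 to 0.16 and that of the 18 from -0.31 to -0.17. The sign turned between 14 and 29 °C in the coding peak of Hsp83 (0.014 with offsets, 0.048 with offsets and block, and from -0.40 to 0.022 with 1 library left out), the 3′ peak of Hsp83 (0.22 with offsets and 0.22 with offsets and block), Hsp68 (0.052 with total-count scaling, 0.036 with the filter on low counts), Hsp60A (from -0.48 to 0.013 with 1 library left out, the latter without replicate 2 at 29 °C) and stv (-0.35 with offsets, -0.33 with offsets and block, and from -0.13 to 0.14 with 1 library left out), and the cause was not tested. Of the 398 repeats of the estimates for single peaks, 369 kept their direction and their side of the threshold, 17 passed it and 12 turned sign. The filter left out the stv peak and the upstream Hsc70-3 peak. At the median peak the counting error is 6.19%, and the variation between replicates, common to all peaks, is 22.7%. Replicate 2 at 14 °C and replicate 2 at 29 °C were also the deepest libraries, and the part of depth was not tested.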
